A study of Homo sapiens with 20 samples.

Results

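Long noncoding RNAs are transcripts that are spliced and often polyadenylated like messenger RNAs but are not known to encode a long protein. Some act in the nucleus as scaffolds, some carry small nucleolar RNAs (snoRNAs) in their introns, and many are transcribed from the opposite strand of, or back to back with, a protein-coding gene. They were followed here in TPC-1 cells, an established line from a human papillary thyroid carcinoma. The RNA-seq libraries fell into 6 of TPC-1 cells kept in coculture for 48 h with PMN-MDSCs (polymorphonuclear myeloid-derived suppressor cells, immature neutrophil-type cells that dampen T cell responses) and 4 of untreated TPC-1 cells, called control. No allele, transgene or other agent was named for either group, all libraries came from 1 cell line, and nothing in the labels said whether the replicates were separate cultures, so the p-values measure the spread between these libraries, which may be technical. The labels state neither where the PMN-MDSCs came from nor whether they were removed before RNA extraction.

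The set held 216 genes of the 54261 rows of the count table, chosen by name and by measured level. A row was taken where it was typed as noncoding RNA and its symbol began with LINC or SNHG or ended in -AS1, or where it was MALAT1, NEAT1 or KCCAT211, and where its mean over the 10 libraries was at least 2 CPM (read counts scaled to a common library total). The naming part was met by 1851 rows, of which 216 reached that level. Of the 216, 143 had antisense names ending in -AS1, 54 were LINC genes (long intergenic names), 16 were SNHG genes (small nucleolar RNA host genes) and 3 were the genes named singly. KCCAT211 was typed as lncRNA in the table and entered by name, with its higher level in coculture known, so its difference is described and not used as a test. It lay under 2 CPM in every control library, so it reached the threshold only through coculture. Just inside the threshold stood LYRM4-AS1 at 2.02 CPM, CDKN2B-AS1 at 2.04 CPM, CERS6-AS1 at 2.05 CPM and ZNF213-AS1 at 2.06 CPM. Just outside it stood LINC01061 at 1.98 CPM, LINC01251 at 1.96 CPM, IPO9-AS1 at 1.95 CPM and LINC01117 at 1.95 CPM.

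By RefSeq (GRCh38.p14), 206 of the 216 carried the biotype lncRNA, and 41 are now listed under another symbol, 17 of them ending in -DT for divergent transcript. The names overstate the noncoding class for 7 genes that RefSeq lists as protein-coding, most of them for small proteins. LINC00094 is listed as BRD3OS, LINC00116 as MTLN (a microprotein of the inner mitochondrial membrane), LINC00493 as SMIM26, LINC00998 as SMIM30, LINC00890 as SERTM2, MMP24-AS1 as MMP24OS and TOPORS-AS1 as SMIM27. A further 2, PSMD5-AS1 and TP73-AS1, are listed as transcribed pseudogenes and 1 as antisense RNA. Among better-known names, LRRC75A-AS1 is listed as SNHG29, LINC00152 as CYTOR, LINC00704 as MANCR and LINC01578 as CHASERR, the last a transcript beside CHD2 that restrains that gene.

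Sequences are shown first for the start sites of SNHG genes, because snoRNA host genes are known for a tract that they share with many genes of the translation machinery. Such transcripts begin with a C followed by an unbroken run of pyrimidines (C or T), the 5′ terminal oligopyrimidine tract. Each window below gives 10 bases before the annotated start and the first 20 transcribed bases, read 5′ to 3′ on the gene's strand from RefSeq GRCh38.p14, with a pyrimidine run of at least 5 bases that begins with C at the start in capitals. The windows lie at chr6:85678714-85678743 (minus) for SNHG5, chr1:28581854-28581883 (minus) for SNHG12, chr16:2155339-2155368 (minus) for SNHG19, chr5:139274091-139274120 (plus) for SNHG4, chr5:9546190-9546219 (plus) for SNHG18, chr1:28505933-28505962 (plus) for SNHG3 and chr4:118278752-118278781 (plus) for SNHG8. The last 2 had no such run beginning at the annotated start and are shown for contrast, though in both, pyrimidines stand directly before it.
SNHG5: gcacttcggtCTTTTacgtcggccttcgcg
SNHG12: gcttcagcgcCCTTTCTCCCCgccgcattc
SNHG19: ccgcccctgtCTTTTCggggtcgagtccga
SNHG4: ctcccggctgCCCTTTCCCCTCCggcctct
SNHG18: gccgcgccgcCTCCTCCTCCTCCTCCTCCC
SNHG3: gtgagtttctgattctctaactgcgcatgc
SNHG8: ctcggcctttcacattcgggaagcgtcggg
Such a run stood at the annotated start of 5 of the 15 SNHG genes with a RefSeq promoter in hand (33.3%). It stood at 9 of the 151 genes of the set with a promoter (5.96%) and at 1429 of all 35116 RefSeq promoters searched (4.07%). The match is to letters at an annotated start and does not show where transcription began in TPC-1 cells.

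The promoter of KCCAT211 is shown because this gene had the largest difference of the set. It runs from 250 bases before the annotated start through the first 50 transcribed bases, at chr3:177816615-177816914 on the plus strand of GRCh38.p14, with CCAAT-box letters (CCAAT or ATTGG) in capitals.
KCCAT211: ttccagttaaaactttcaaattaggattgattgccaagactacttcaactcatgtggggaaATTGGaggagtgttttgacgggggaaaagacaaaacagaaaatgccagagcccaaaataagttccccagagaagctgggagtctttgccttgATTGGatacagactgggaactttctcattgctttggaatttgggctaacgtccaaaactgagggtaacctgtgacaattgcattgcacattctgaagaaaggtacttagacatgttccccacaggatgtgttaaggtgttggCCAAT
CCAAT-box letters were found 3 times on either strand, at positions -189, -97 and 45 counted from the start base as 0. At least 1 such match was in 37.1% of the 151 promoters of the set and in 34.6% of all promoters searched. No match was found in this window for AP-1 (TGANTCA), an NF-kB-like site (GGGNNTTCC), the TATA box (TATAAA), the E-box (CACGTG) or a C/EBP-like site (TTGCNNAA). The share of promoters with a match, in the set against all promoters searched, was 5.30% against 7.71% for AP-1, 9.93% against 6.58% for the NF-kB-like site, 9.93% against 11.5% for the TATA box, 7.28% against 7.26% for the E-box and 5.96% against 10.5% for the C/EBP-like site. Both strands were searched, and a match is a description of the letters alone.

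RNA-seq libraries held 40237801 to 48197608 counts, and the gene of the set with the fewest reads had 866 counts over the 10 libraries. Across all 15629 genes tested with edgeR's quasi-likelihood test, 178 were higher and 29 lower in coculture at a Benjamini-Hochberg adjusted p under 0.05. Coculture libraries 1 and 2 stood apart from the other 8 on the first principal component of all genes, at -66.1 and -60.6 against 0.908 to 31.8, and they did so in the set as described below. A list of 21 leukocyte and myeloid markers summed to 52.1 to 80.4 CPM in coculture and 14.8 to 15.9 CPM in control, with 12 of its 13 tested members higher, 9 of the 21 at 0 in every control library, CD53, TYROBP and S100A8 among them, and AIF1 and FCGR3B at 0 in all libraries. PTPRC, which marks all leukocytes, had 70 counts in coculture and 1 in control. MNDA, CSF3R and CD3E, also at 0 in control, had only 3, 11 and 14 counts in coculture. LYZ had 3540 counts in coculture and 15 in control. Most of the control sum came from LCP1, at 5.75 to 6.76 CPM, and CORO1A, at 5.91 to 7.54 CPM. CORO1A ran from 4.50 to 14.6 CPM in coculture, so its groups overlapped. A list of 9 fibroblast and endothelial markers reached 147 CPM in coculture 1 and 2.88 to 9.005 CPM in the other coculture libraries, against 3.13 to 6.64 CPM in control. Thyroid and epithelial markers summed to 1188 to 1314 CPM in coculture and 1083 to 1179 CPM in control, with PAX8, KRT8 and KRT18 abundant, while NKX2-1, TSHR, SLC5A5 and CDH1 were at 0 in control. In such bulk RNA, fewer cells of a type and less RNA per cell cannot be told apart. The part of these marker levels in the results below was not tested.

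The 216 genes together drew 1614697 counts, and a few of them held most of it. The 10 most abundant took 52.2% of the set's counts, and MALAT1 with LRRC75A-AS1 alone took 20.7%. By mean level, 8 genes stood at 100 CPM or more, 48 between 10 and 100 CPM and 160 between 2 and 10 CPM, with a median of 4.83 CPM. The set made up 0.371% ± 0.0291 of all counts in coculture libraries and 0.384% ± 0.0261 in control libraries (SD, n = 6 and 4). Its share ran from 0.335% to 0.403% in coculture and from 0.346% to 0.402% in control, so the groups overlapped over most of their range.

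**Figure D1:**
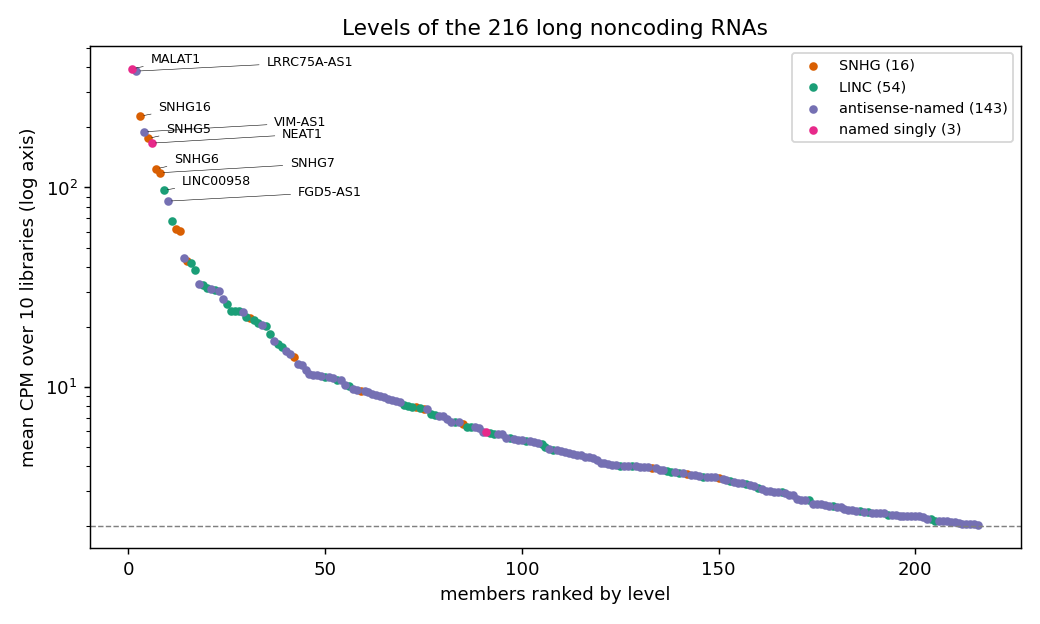
Mean level of each of the 216 long noncoding RNAs over the 10 libraries, in CPM on a log axis, against its rank. Points are genes coloured by name class, the dashed line is the 2 CPM threshold, and the 10 most abundant genes are named, from MALAT1 at 394 CPM down.

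At the top stood MALAT1, a nuclear RNA of splicing speckles, with a mean of 394 CPM over all libraries, followed by LRRC75A-AS1 at 383 CPM, SNHG16 at 228 CPM, VIM-AS1 at 190 CPM and SNHG5 at 176 CPM. NEAT1, the RNA around which paraspeckles form, stood at 167 CPM, SNHG6 at 124 CPM, SNHG7 at 119 CPM, LINC00958 at 96.9 CPM and FGD5-AS1 at 85.4 CPM. Levels of neighbours in this order mostly lay within their spread over libraries. LRRC75A-AS1 averaged 384 ± 40.2 CPM in coculture and 383 ± 23.5 CPM in control, while MALAT1 varied from 127 to 594 CPM. Per kilobase of transcript the order changed: SNHG5 led at 348 CPM per kilobase, before LRRC75A-AS1 at 276, SNHG6 at 263, VIM-AS1 at 102, SNHG8 at 100.2, SNHG16 at 89.8 and LINC00958 at 62.2 CPM per kilobase. MALAT1, 6582 bases long in the table, came to 59.9 CPM per kilobase, LINC01605 to 58.2 and SNHG7 to 54.5. NEAT1, at 22743 bases, came to 7.34 CPM per kilobase. The first 3 places per length went to snoRNA host genes, LRRC75A-AS1 being listed by RefSeq as SNHG29.

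Coculture with PMN-MDSCs moved few of these RNAs past the test. Of 216 genes, 1 (KCCAT211) was called higher and 0 lower by edgeR's quasi-likelihood test at a Benjamini-Hochberg adjusted p under 0.05, where 1.14% of all genes tested were called higher, 0.186% lower and 1.32% in either direction. Since KCCAT211 entered the set with its difference known, the count that bears on the others is 0 of 215. At an unadjusted p under 0.05 there were 20 genes (9.26%), 12 of them higher and 8 lower in coculture, against 9.66% of all genes tested, 6.07% higher and 3.58% lower. DESeq2 called 2 genes higher, KCCAT211 and CEBPB-AS1, and 0 lower. The log2 fold change was positive for 133 genes and negative for 83, with a median of 0.05 against 0.01 over all genes tested.

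For 198 of the 216 genes (91.7%, against 79.2% of all genes tested) the 95% confidence interval of the difference lay within 2-fold either way. It lay within 1.5-fold for 117 (54.2%, against 57.4% of all genes). The genes outside these bounds include KCCAT211. The set was chosen at 2 CPM or more, while all genes tested include lower ones. Within 2-fold lay 36.5% of the same-named genes tested under 2 CPM and 42.6% of all tested noncoding RNA rows outside the set. The 91.7% is therefore no sign that these RNAs were steadier than other genes.

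**Figure D2:**
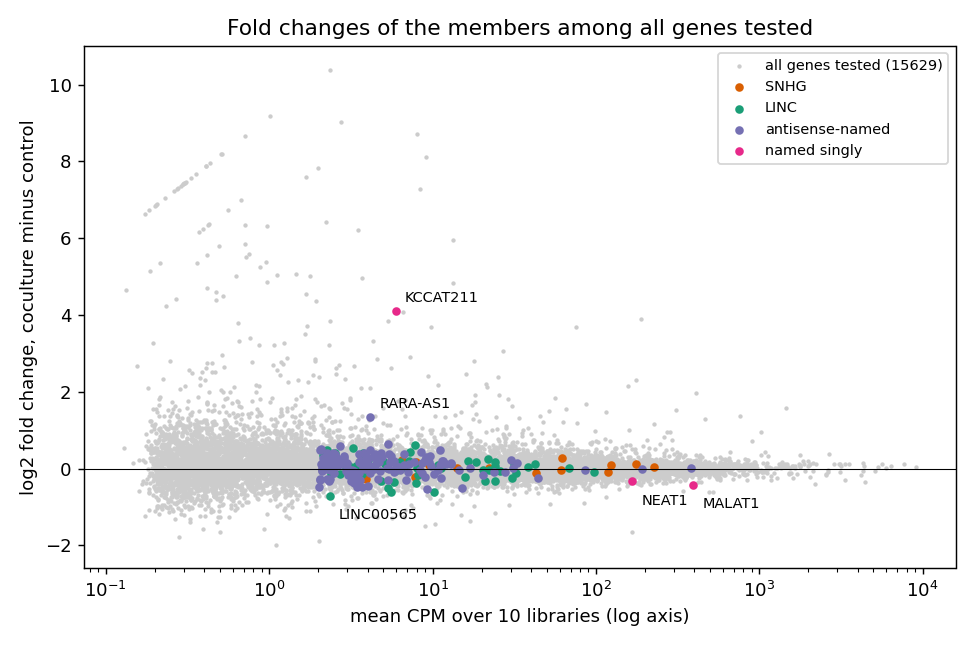
Log2 fold change, coculture minus control, from edgeR against the mean CPM over 10 libraries on a log axis, with all 15629 genes tested in grey and the 216 long noncoding RNAs in colour by name class. KCCAT211 stands at 4.10, RARA-AS1 at 1.35 and LINC00565 at -0.71, and the rest of the set lies between -0.71 and 1.35.

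KCCAT211, listed by RefSeq as LINC02015, lies at chr3:177816865-177899224 on the plus strand in the deposited table and has a transcript of 2957 bases. It was measured at 13.96, 9.62, 2.89, 9.32, 7.73 and 13.6 CPM in coculture libraries 1 to 6, against 0.491, 1.53, 0.097 and 0.113 CPM in control libraries 1 to 4. The groups did not overlap, coculture 3 was the lowest of its group, and control 2 was the highest of the controls. The means were 9.52 ± 4.09 CPM in coculture and 0.558 ± 0.674 CPM in control (SD), a log2 fold change of 4.10 ± 0.69 (SE) with a 95% interval of 2.61 to 5.59 and an edgeR adjusted p of 0.00894. Without control 1 the adjusted p was 0.0517 at a log2 fold change of 4.04, and without coculture 1 and 2 it was 0.0667 at 3.91. In the same libraries the leukocyte and myeloid markers summed to 80.4, 52.1, 64.4, 73.4, 57.5 and 79.5 CPM in coculture and to 15.9, 15.3, 15.3 and 14.8 CPM in control, and whether the KCCAT211 reads came from TPC-1 cells or PMN-MDSCs was not tested.

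No other row of the table overlapped KCCAT211. Rows on either side of it were nearly silent: LINC00578 had 9 counts in all 10 libraries, LOC101928711 had 0 and LOC107986154 had 5. LINC00501, further upstream, had 345 counts and a log2 fold change of 0.80 (edgeR adjusted p = 0.393). Among genes with the same kinds of name that were tested but lay under 2 CPM, 1 of 301 was called, LINC00326, named here after its values were seen. Of all genes tested, 1.32% were called. LINC00326 averaged 0.992 ± 0.227 CPM in coculture and 0.372 ± 0.109 CPM in control, a log2 fold change of 1.41 ± 0.29 (edgeR adjusted p = 0.0301).

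In 5 genes of the set (2.31%, against 3.62% of all genes tested) the coculture and control libraries did not overlap: 4 were higher (2.45% of all genes) and 1 lower (1.17% of all genes) in coculture. Beside KCCAT211 these were antisense genes, CEBPB-AS1, RPARP-AS1 and FLG-AS1 among them, and 0 of the 4 antisense genes passed the edgeR adjusted threshold.

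**Figure D3:**
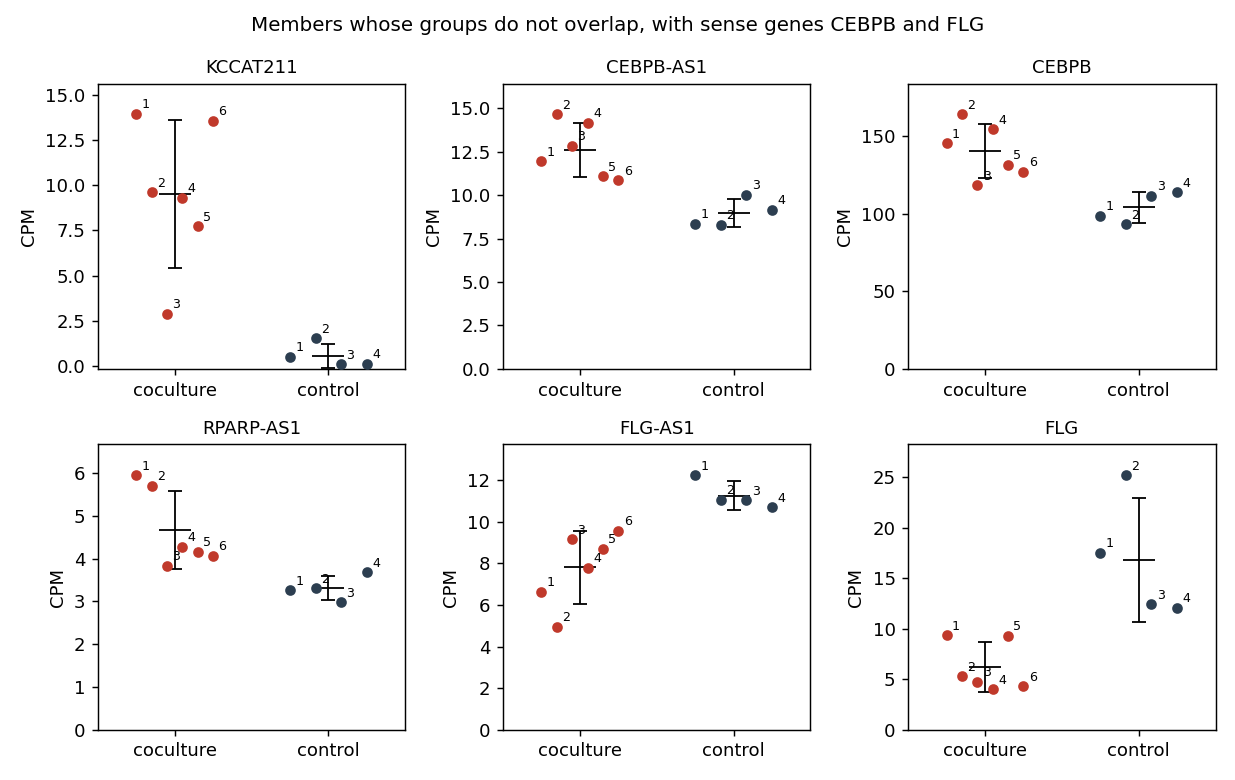
CPM of KCCAT211, RPARP-AS1, CEBPB-AS1 and FLG-AS1, whose groups did not overlap, and of the sense genes CEBPB and FLG, with coculture libraries 1 to 6 on the left and control libraries 1 to 4 on the right of each panel; bars give the mean and SD. KCCAT211 averaged 9.52 CPM in coculture and 0.558 CPM in control, and FLG-AS1 averaged 7.81 CPM in coculture and 11.3 CPM in control.

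CEBPB-AS1 (chr20:50184603-50192069, minus strand) runs against CEBPB, the gene of the acute-phase and inflammatory transcription factor C/EBP beta, and covers 1487 bases of it. It was measured at 11.9, 14.7, 12.9, 14.2, 11.1 and 10.9 CPM in coculture, against 8.35, 8.30, 10.02 and 9.17 CPM in control. Every coculture library lay above every control library, by a narrow gap. The means were 12.6 ± 1.58 CPM in coculture and 8.96 ± 0.809 CPM in control (SD), a log2 fold change of 0.49 ± 0.12 with a 95% interval of 0.22 to 0.76 and an edgeR adjusted p of 0.101, while DESeq2 gave 0.0061. CEBPB itself averaged 140 ± 17.4 CPM in coculture and 104 ± 9.97 CPM in control, a log2 fold change of 0.43 ± 0.11 (edgeR adjusted p = 0.0925, DESeq2 0.0139, and edgeR 0.0487 without coculture 3). CEBPB-AS1 drew 8.85% as many reads as CEBPB. No strand setting of the counting is stated, so reads of the overlapping pair cannot be told apart.

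FLG-AS1, listed by RefSeq as CCDST, was the gene that stood lower in coculture (chr1:152313459-152366692, plus strand). It was measured at 6.65, 4.95, 9.16, 7.80, 8.72 and 9.58 CPM in coculture, against 12.3, 11.1, 11.04 and 10.7 CPM in control. All 6 coculture libraries lay below the controls, with coculture 2 the lowest. The means were 7.81 ± 1.75 CPM in coculture and 11.3 ± 0.682 CPM in control (SD), a log2 fold change of -0.53 ± 0.17 with a 95% interval of -0.90 to -0.16 and an edgeR adjusted p of 0.254.

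FLG, which encodes the keratin-binding barrier protein filaggrin, lies on the opposite strand and shares 11745 bases with FLG-AS1. It was measured at 9.36, 5.31, 4.75, 4.02, 9.30 and 4.29 CPM in coculture, against 17.5, 25.2, 12.4 and 12.1 CPM in control, again with no overlap between groups. FLG fell by 1.45 ± 0.29 on the log2 scale, to 6.17 ± 2.49 CPM in coculture against 16.8 ± 6.13 CPM in control (SD, edgeR adjusted p = 0.0286). That call did not survive leaving out coculture 2 (adjusted p = 0.0534), coculture 3 (0.0543), coculture 4 (0.0608), coculture 6 (0.0747), control 1 (0.0929) or control 2 (0.108). FLG was the 1 sense partner of the set that passed the test, and the shared bases leave its reads and those of FLG-AS1 uncertain.

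RPARP-AS1 on chromosome 10 was measured at 5.96, 5.71, 3.84, 4.28, 4.17 and 4.07 CPM in coculture, against 3.27, 3.31, 2.98 and 3.68 CPM in control. Coculture 1 and 2 were the highest, and the other 4 lay just above control 4. Its log2 fold change was 0.50 ± 0.17 (edgeR adjusted p = 0.297) and came to 0.29 ± 0.14 without coculture 1 and 2, and the table places it across 1707 bases of C10orf95.

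Antisense and sense genes were set side by side for the 143 genes ending in -AS1. The gene that the name points to was in the table for 141 and was tested for 134. In all 134 pairs the 2 genes lay on opposite strands, 96 pairs overlapped and 60 had starts within 1 kb of each other. The sense gene was the more abundant in 113 pairs. Of the 134 sense genes, 0 were higher and 1 (FLG) lower in coculture at an edgeR adjusted p under 0.05. Of all genes tested, 1.14% were higher and 0.186% lower. The median log2 fold change of the sense genes was -0.02. Both genes of a pair had positive log2 fold changes in 40 pairs and negative ones in 26, while in 45 the antisense gene was positive and the sense gene negative and in 23 the reverse. These are signs of mostly small differences and carry no test.

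VIM-AS1 averaged 190 ± 34.9 CPM in coculture and 192 ± 19.7 CPM in control. It shares 2051 bases with VIM, the mesenchymal intermediate filament gene vimentin, which averaged 3998 ± 296 CPM in coculture and 4497 ± 462 CPM in control, and it drew 4.54% as many reads. PAX8-AS1, chosen after its values were seen because PAX8 is the thyroid transcription factor, averaged 4.24 ± 0.672 CPM in coculture and 3.19 ± 0.411 CPM in control (log2 fold change 0.41 ± 0.17, edgeR adjusted p = 0.422). PAX8-AS1 shares 31497 bases with PAX8 and drew 0.661% as many reads. PAX8 itself had a log2 fold change of 0.30 ± 0.12 (edgeR adjusted p = 0.404). With no strand setting stated, reads of VIM-AS1 and PAX8-AS1 cannot be told apart from those of VIM and PAX8. FGD5-AS1 averaged 84.8 ± 4.55 CPM in coculture and 86.4 ± 8.13 CPM in control, among the steadiest of the abundant genes.

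Position in the genome differed by name class. The annotated start lay within 1 kb of the start of a protein-coding gene on the opposite strand for 96 of the 216 genes (44.4%), which were 83 of 143 antisense genes, 8 of 54 LINC genes and 5 of 16 SNHG genes. Among genes with the same kinds of name under 2 CPM the share was 41.5% of 301. A protein-coding gene body on the opposite strand was overlapped by 116 genes (53.7%), and 59 (27.3%) had no such start, no such overlap and no protein-coding gene on their own strand. The 96 with a nearby opposite start had a median level of 4.04 CPM and a median log2 fold change of 0.07, against 5.89 CPM and 0.05 for the other 120. Chromosome 10 held the most genes of the set, 20.

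The SNHG genes carry snoRNAs in their introns, which guide chemical modification of ribosomal RNA, and their spliced exons are often short-lived through nonsense-mediated decay. Of the 16 SNHG genes 0 passed the edgeR test, against 1.32% of all genes tested, and limma-voom and DESeq2 also called 0 of them. An unadjusted p under 0.05 was reached by 0 of the 16, against 9.66% of all genes. The SNHG log2 fold changes ran from -0.28 for SNHG20 to 0.29 for SNHG8, with 10 positive, 6 negative and a median of 0.02. All 16 intervals lay within 2-fold and 11 within 1.5-fold. Without coculture 1 and 2 the log2 fold changes ran from -0.08 for SNHG5 to 0.21 for SNHG12, 9 of the 16 changed sign, and SNHG8 came to 0.03 ± 0.11 and SNHG20 to -0.01 ± 0.17.

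SNHG16 averaged 231 ± 30.2 CPM in coculture and 223 ± 16.3 CPM in control, and SNHG5 averaged 182 ± 37.8 CPM in coculture and 168 ± 19.7 CPM in control. SNHG6 averaged 127 ± 17.7 CPM in coculture and 119 ± 13.3 CPM in control, and SNHG7 averaged 116 ± 19.3 CPM in coculture and 123 ± 16.7 CPM in control. These 4 differed by less than their spread. SNHG8 averaged 66.8 ± 16.6 CPM in coculture and 54.8 ± 8.50 CPM in control (log2 fold change 0.29 ± 0.17, edgeR adjusted p = 0.643). SNHG1 averaged 60.05 ± 18.1 CPM in coculture and 62.1 ± 10.1 CPM in control, and SNHG3 averaged 41.6 ± 9.04 CPM in coculture and 44.7 ± 8.63 CPM in control. The rest were lower, from SNHG17 at 22.4 ± 4.06 CPM in coculture and 22.1 ± 4.00 CPM in control to SNHG21 at 3.51 ± 0.437 CPM in coculture and 3.46 ± 0.633 CPM in control. Several SNHG genes start back to back with a protein-coding gene: SNHG16 at 72 bases from CYGB, SNHG18 at 79 from SEMA5A, SNHG10 at 114 from GLRX5, SNHG1 at 124 from SLC3A2, the heavy chain of an amino acid transporter, and SNHG19 at 394 from TRAF7. SNHG3 lies on the same strand within RCC1 in the table, SNHG4 within MATR3 and SNHG20 within SEC14L1, so their reads may be shared with those genes.

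Within the coculture group the SNHG genes split, with coculture 1 and 2 the lowest pair of all 10 libraries for 6 of the 16 and the highest pair for 4. SNHG8 was measured at 86.8, 88.3, 61.1, 60.7, 50.1 and 54.1 CPM in coculture, against 44.3, 52.7, 58.0 and 64.4 CPM in control. SNHG20 was measured at 2.18, 1.92, 5.06, 4.23, 4.65 and 3.64 CPM in coculture, against 3.35, 3.86, 5.09 and 5.20 CPM in control. The first 2 coculture libraries stood above all others in SNHG8 and below all others in SNHG20. SNHG5 was likewise highest in coculture 1 and 2, at 213 and 238 CPM against 136 to 178 CPM in the other coculture libraries and 147 to 186 CPM in control. SNHG4 was lowest there, at 3.76 and 3.50 CPM, while the other coculture libraries held 7.05 to 11.2 CPM and the controls 7.03 to 9.99 CPM.

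Other genes of the same machinery showed 0 calls as well. Of 14 nonsense-mediated decay factors, 0 passed the edgeR test, against 1.32% of all genes tested. An unadjusted p under 0.05 was reached by 0 of the 14, against 9.66% of all genes. Of these factors 12 had negative log2 fold changes, and the median was -0.09. UPF1, the central helicase of this pathway, averaged 177 ± 42.4 CPM in coculture and 211 ± 14.1 CPM in control (log2 fold change -0.25 ± 0.16, edgeR adjusted p = 0.66). UPF1 was lowest in coculture 1 and 2, at 130 and 121 CPM, against 181 to 225 CPM in the other coculture libraries and 198 to 231 CPM in control. Of 8 snoRNP core proteins 0 passed, with a median of -0.05. FBL, one of them, was counted at a place outside the chromosomes, at a mean of 7.33 CPM, which may not hold all its reads. Of 30 other snoRNA host genes, which include DKC1 and NOP56 from that list, 0 passed, against 1.32% of all genes tested. These hosts had 23 positive and 7 negative log2 fold changes and a median of 0.08. DANCR, one of these hosts, averaged 63.5 ± 16.1 CPM in coculture and 82.3 ± 18.8 CPM in control (edgeR adjusted p = 0.594). Coculture 1 and 2 were lowest in DANCR, at 44.1 and 43.0 CPM, against 67.4 to 78.9 CPM in the other coculture libraries. DANCR ran from 61.2 to 101 CPM in control. Among other hosts of this list, HSPA8 was also lowest in coculture 1 and 2, but RPL3 and RPL12 were highest there. RPL3 stood at 2492 and 2667 CPM, against 1783 to 1865 CPM in the other coculture libraries and 1690 to 1952 CPM in control.

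NEAT1 and MALAT1 lie next to each other on chromosome 11 and are both retained in the nucleus. NEAT1 was measured at 129, 129, 187, 189, 139 and 134 CPM in coculture, against 177, 158, 207 and 220 CPM in control. Coculture 1, 2, 5 and 6 lay below every control, while coculture 3 and 4 lay within the control range. The means were 151 ± 28.6 CPM in coculture and 191 ± 28.2 CPM in control, a log2 fold change of -0.33 ± 0.14 with a 95% interval of -0.64 to -0.03, which missed the adjusted threshold (edgeR adjusted p = 0.452). Of 18 paraspeckle proteins, which bind NEAT1, 0 passed the edgeR test, against 1.32% of all genes tested. An unadjusted p under 0.05 was reached by 2 of them (11.1%, against 9.66% of all genes), TARDBP and HNRNPR. HNRNPR rested on control 3, at 27.6 CPM, against 3.76 to 5.65 CPM in the other controls and 2.44 to 8.52 CPM in coculture. Of the 18 log2 fold changes, 3 were positive and 15 negative, with a median of -0.10. NONO, a core protein of these bodies, averaged 473 ± 44.3 CPM in coculture and 527 ± 17.1 CPM in control (log2 fold change -0.16 ± 0.08, edgeR adjusted p = 0.582). NONO stood at 404 and 433 CPM in coculture 1 and 2, against 489 to 516 CPM in the other coculture libraries and 504 to 545 CPM in control.

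MALAT1 was measured at 346, 432, 472, 519, 188 and 127 CPM in coculture, against 230, 594, 516 and 517 CPM in control. Coculture 5 and 6 and control 1 were low and the other libraries lay between 346 and 594 CPM, so the groups overlapped. The means were 347 ± 159 CPM in coculture and 464 ± 161 CPM in control, a log2 fold change of -0.42 ± 0.37 (edgeR adjusted p = 0.76), and the interval of -1.21 to 0.38 includes a fall of more than 2-fold as well as a small rise. The log2 fold change was -0.24 without coculture 6, -0.28 without control 2 and -0.65 without control 1. The same 3 libraries had the lowest shares of counts in the set, 0.335% and 0.336% in coculture 5 and 6 and 0.346% in control 1. Without MALAT1 and NEAT1 the share was 0.321% ± 0.0128 in coculture and 0.318% ± 0.0124 in control.

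LINC genes showed 0 calls among 54, against 1.32% of all genes tested. An unadjusted edgeR p under 0.05 was reached by 5 of the 54 (9.26%, against 9.66% of all genes tested). The LINC log2 fold changes ran from -0.71 to 0.61. LINC00958, the most abundant, averaged 94.6 ± 22.3 CPM in coculture and 100 ± 5.06 CPM in control. LINC01605 averaged 28.7 ± 2.84 CPM in coculture and 33.8 ± 2.65 CPM in control (log2 fold change -0.23 ± 0.10, edgeR adjusted p = 0.454). LINC00704 (MANCR), named after its values were seen, was measured at 17.9, 21.3, 24.9, 22.9, 21.9 and 22.0 CPM in coculture, against 23.8, 26.5, 29.9 and 29.6 CPM in control. Only coculture 3 reached into the control range, and the log2 fold change was -0.33 ± 0.11 (edgeR adjusted p = 0.262). LINC00152 (CYTOR) averaged 39.0 ± 3.70 CPM in coculture and 37.7 ± 7.54 CPM in control, but it has a near-identical copy in MIR4435-2HG, at 53.1 ± 1.73 CPM in coculture and 53.4 ± 5.92 CPM in control, so the split of reads between them is uncertain. The same holds for NUTM2A-AS1 and NUTM2B-AS1.

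The 7 genes that RefSeq lists as protein-coding all lay under 100 CPM, and 0 of them passed the edgeR test, against 1.32% of all genes tested. LINC00094 (BRD3OS) averaged 68.5 ± 12.4 CPM in coculture and 67.3 ± 3.00 CPM in control, and LINC00116 (MTLN) averaged 24.4 ± 1.22 CPM in coculture and 23.5 ± 4.35 CPM in control. LINC00493 (SMIM26) averaged 23.3 ± 3.15 CPM in coculture and 19.6 ± 2.03 CPM in control (log2 fold change 0.25, edgeR adjusted p = 0.543).

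The leading pattern of variation in the set ran within the coculture group. Coculture 1 and 2 were the 2 lowest libraries for 48 of the 216 genes (22.2%, against 22.3% of all genes tested) and the 2 highest for 60 (27.8%, against 22.4%). Together that is 108 genes (50%, against 44.7% of all genes), where 45 pairs of libraries are possible. The next pair, coculture 3 and 4, did so for 25 genes (11.6%, against 15.8% of all genes). By class, coculture 1 and 2 were the extreme pair for 10 of 16 SNHG genes, 33 of 54 LINC genes and 64 of 143 antisense genes. On the first principal component of the set, coculture 1 and 2 stood at -7.05 and -7.25 while the remaining 8 libraries lay from -0.587 to 4.29.

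**Figure D4:**
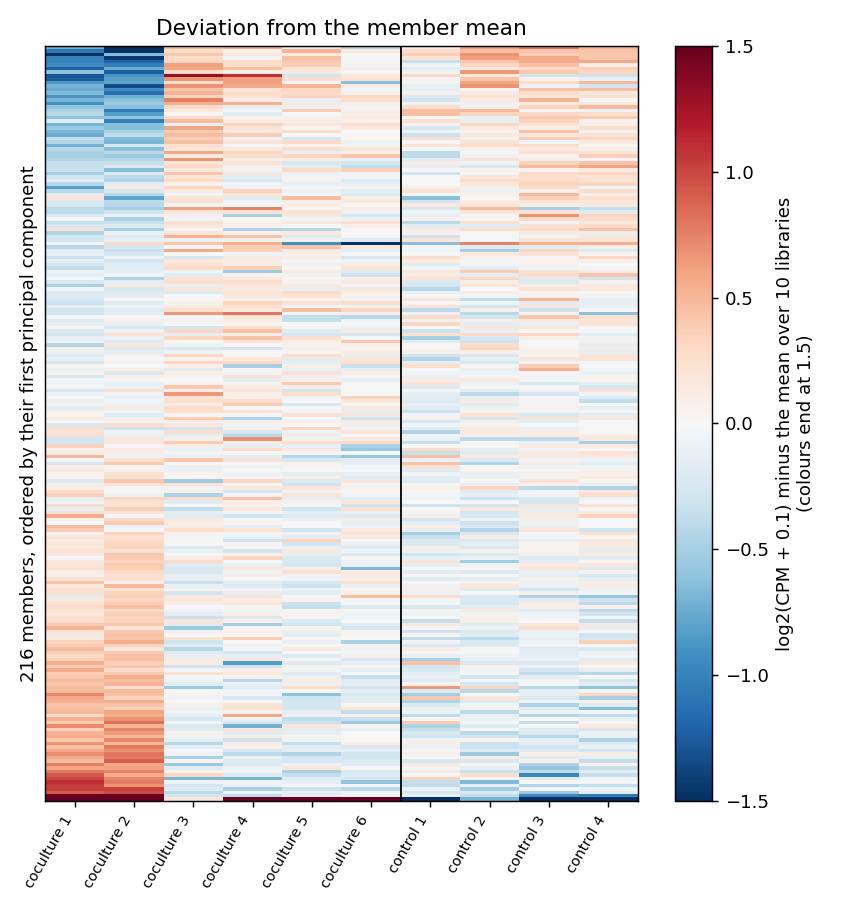
Each row is 1 of the 216 long noncoding RNAs and each column a library, coloured by log2(CPM + 0.1) minus the gene's mean over the 10 libraries, with rows ordered by the first principal component. Coculture 1 and 2 are blue at the top and red at the bottom, and together they were the extreme pair for 108 genes; the black line parts coculture from control.

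The median coefficient of variation was 18.8% in coculture, 12.5% in coculture without libraries 1 and 2, and 12.2% in control. Over all genes tested it was 18.9% in coculture, 11.1% in coculture without libraries 1 and 2, and 13.0% in control. The 6 genes with the highest variation within coculture, chosen after their values were seen, were RARA-AS1 (77.4%), LINC01004 (72.2%), EML2-AS1 (54.9%), BAIAP2-AS1 (53.4%), LINC00565 (53.4%) and LINC01588 (48.1%).

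RARA-AS1, antisense to the retinoic acid receptor alpha gene, was measured at 10.4, 11.6, 2.67, 2.47, 2.88 and 3.06 CPM in coculture, against 3.03, 2.50, 1.60 and 1.51 CPM in control. In coculture 1 and 2 it was high, and the other 4 lay at or near the upper controls. Its log2 fold change of 1.35 ± 0.51 (edgeR adjusted p = 0.375) came to 0.34 ± 0.23 without coculture 1 and 2. RARA, which shares 2270 bases with it, averaged 49.4 ± 7.12 CPM in coculture and 52.3 ± 1.19 CPM in control. EML2-AS1 was measured at 16.3, 16.2, 6.89, 5.54, 6.29 and 5.95 CPM in coculture, against 7.37, 5.51, 7.91 and 7.499 CPM in control. Its overlapping sense gene EML2, for a microtubule-associated protein, was high in the same libraries, at 280 and 272 CPM in coculture 1 and 2. EML2 stood at 95.8 to 119 CPM in the other coculture libraries and 106 to 129 CPM in control. EML2-AS1 shares 1347 bases with EML2 and drew 5.90% as many reads. With no strand setting stated, reads of EML2-AS1 and RARA-AS1 cannot be told apart from those of EML2 and RARA.

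BAIAP2-AS1 was measured at 21.8, 18.02, 6.68, 6.66, 9.55 and 9.03 CPM in coculture, against 13.7, 10.7, 9.46 and 10.5 CPM in control. Coculture 1 and 2 stood above every control and coculture 3 and 4 below, and the log2 fold change of 0.11 turned to -0.49 ± 0.16 without coculture 1 and 2 (edgeR adjusted p = 0.157). LINC01004 was measured at 0.688, 0.947, 4.75, 4.04, 1.49 and 2.07 CPM in coculture, against 2.31, 2.05, 1.504 and 1.47 CPM in control. Here coculture 1 and 2 were the lowest libraries and coculture 3 and 4 the highest. LINC00565 was measured at 1.22, 0.547, 2.98, 3.09, 1.92 and 1.52 CPM in coculture, against 2.24, 3.26, 3.74 and 3.03 CPM in control, and its log2 fold change of -0.71 ± 0.38 (edgeR adjusted p = 0.594) was the most negative of the set. Without coculture 1 and 2 it came to -0.38 ± 0.24, and LINC00888 at -0.56 ± 0.16 was then the most negative.

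**Figure D5:**
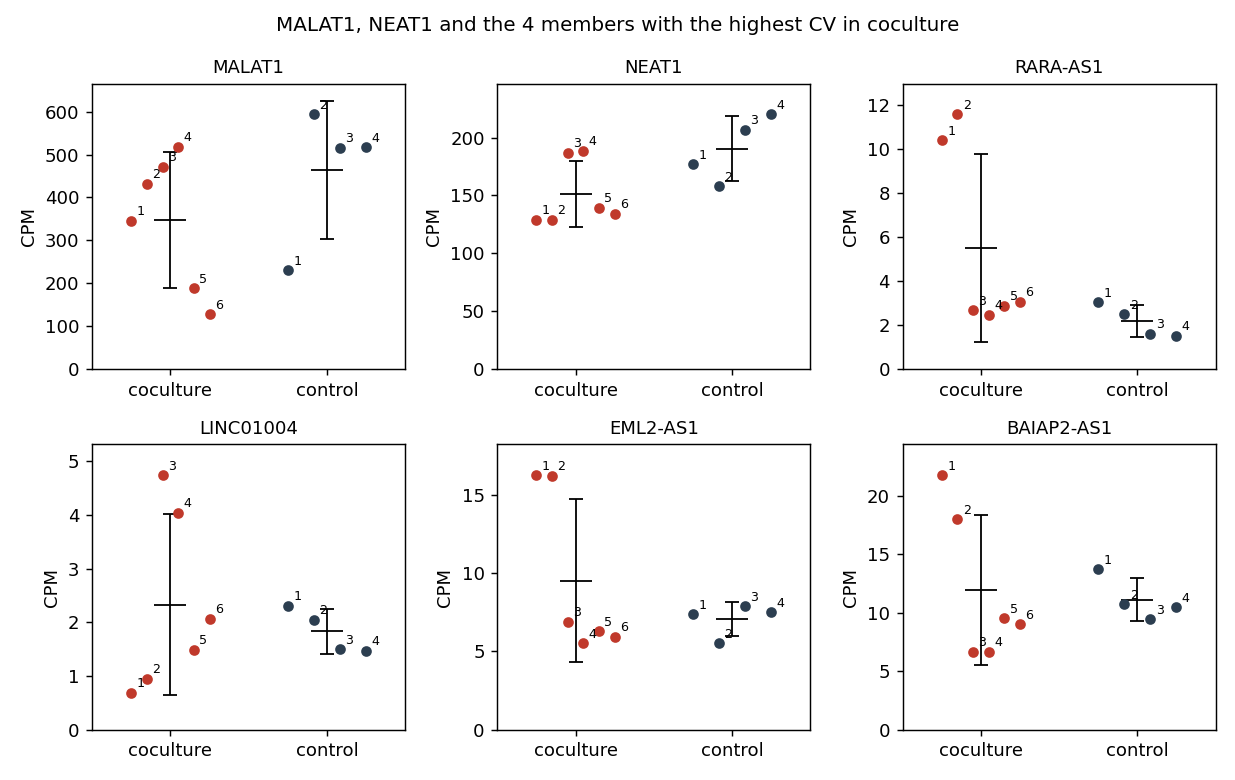
CPM of MALAT1, NEAT1 and the 4 long noncoding RNAs with the highest coefficient of variation within coculture, with coculture libraries 1 to 6 on the left and control libraries 1 to 4 on the right of each panel; bars give the mean and SD. RARA-AS1 reached 10.4 and 11.6 CPM in coculture 1 and 2 and at most 3.06 CPM in the other coculture libraries.

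With coculture 1 and 2 left out, edgeR called 0 of the 216 genes, KCCAT211 included, and 322 of 15309 genes in all. The log2 fold change changed sign for 59 of the 216, from positive to negative for 38 and from negative to positive for 21. SNHG1, SNHG7 and LINC00958 were among those that became positive, at 0.16, 0.04 and 0.10, and SNHG5 and SNHG6 among those that became negative, at -0.08 and -0.04. The groups then did not overlap in 15 genes of the set, against 8.43% of all genes, and 25 had an unadjusted p under 0.05, against 13.7% of all genes. The median SE of the log2 fold changes was 0.155, against 0.175 with all libraries, and the smallest adjusted p other than that of KCCAT211 was 0.0998, for CEBPB-AS1.

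Some of these genes also span miRNA hairpins, which the miRNA-seq libraries of the same design could show. By position in RefSeq, 5 of the 216 spanned 6 hairpins with 9 mature miRNAs in the deposited miRNA table, whose library totals were 3971608 to 5895539 counts. Only 4 genes (TTC28-AS1, RAB11B-AS1, SNHG20 and ENTPD1-AS1) had a hairpin on their own strand, 4 hairpins with 7 mature miRNAs, while that within LYRM4-AS1 and one of those within TTC28-AS1 lay on the opposite strand. All 9 were scarce, with means of 0.372 to 6.23 CPM. The most abundant, miR-3157-3p within ENTPD1-AS1, ran from 1.72 to 6.56 CPM in coculture and from 1.53 to 15.4 CPM in control. The groups overlapped, and at such counts no difference could be read.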

How the data were processed

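RNA-seq and miRNA-seq of TPC-1 cells gave 6 coculture and 4 control libraries each, grouped by the treatment label. The authors deposited raw read counts per gene and per mature miRNA, and 0 of their value columns were left unused. The submitters' processing notes name the tools HISAT2 2.0.4 and BWA and the build GRCh38.p10 without saying what each did; the labels and headers do not state the counting tool, annotation or strand setting. The coordinates and lengths of genes are those of the deposited table, and promoter and miRNA sequences and current symbols are from RefSeq GRCh38.p14, with all 216 genes matched and 151 with a promoter sequence.

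The fit used edgeR 4.0.16 in R 4.3.3 (TMM, filterByExpr by group, robust glmQLFit, glmQLFTest), which left 15629 genes, all 216 of the set among them. Benjamini-Hochberg adjustment ran over all genes tested, at 0.05. The standard error is the log2 fold change divided by the square root of F. CPM used TMM library sizes, also per kilobase, except mean levels over 10 libraries, marker sums and miRNA values, which used column totals. Values are mean ± SD unless SE is named, with n = 6 and 4; the value after ± a log2 fold change is its SE. Each pair of libraries of a group was set against sampling noise by a chi-square over genes, and the smallest value per degree of freedom was 6.86, so none agreed within sampling noise. A count of 3 came to 0.0622 to 0.0746 CPM per library, counting error only.

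The genes, gene lists and settings were chosen with earlier results of these data known. Named were genes past the threshold, the 10 with the highest level and the 10 with the highest level per kilobase, up to 5 in each direction with no overlap between groups, MALAT1, NEAT1, KCCAT211, all SNHG genes, the 4 on either side of the level threshold, sense partners and up to 4 genes of each list. Genes given for their RefSeq names or near-identical copies, and those said to be so, were chosen after their values were seen. Alternatives were RLE size factors, no filter, DESeq2 1.42.0, voom in limma 3.58.1, a replicate block, each library left out, coculture 1 and 2 left out together, and other level thresholds. The main edgeR fit was run on simulated data that did not hold the split of coculture 1 and 2. DESeq2, voom, the fit with no filter and the replicate block were not run on them. Some results are not reported here.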

Additional observations from a re-analysis of the deposited data

Results flagged for a closer look

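In 3 of the 66 groups of values examined, over 32 named genes, 1 library lay farther from the rest than Dixon's 95% limit allows, where chance gives about 1 in 20 groups. All 3 were in control and were the lowest of their group. SNHG7 was at 98.1 CPM in control 1, against 127 to 133 CPM in the other controls. SNHG1 was at 47.1 CPM in control 1, against 65.5 to 69.2 CPM in the others. LINC01605 was at 29.8 CPM in control 2, against 34.9 to 35.4 CPM in the others.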

How the results depend on the processing

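Of the 216 genes, 1 was called higher in the main analysis and 0 lower. The number called higher was 0 with no filter on low counts (KCCAT211 adjusted p = 0.0931), 2 with DESeq2 (KCCAT211 and CEBPB-AS1), 0 with coculture 1 and 2 left out together, and 0 to 1 when each library was left out, the 0 being without control 1. It was 1 with RLE size factors, limma-voom and the replicate block, and 0 were called lower under every setting run. KCCAT211 had an adjusted p of 0.0236 with limma-voom and 8.98e-06 with DESeq2, and 0.00268 to 0.0517 when each library was left out. This gene was chosen with its difference known, so these values describe it and are no test. With coculture 1 and 2 left out, 59 of the 216 log2 fold changes changed sign, as given above, and 0 of those was called. With the replicate as a block, coculture 5 and 6 had no control of their number and did not enter the difference. MALAT1, low in those libraries, then had a log2 fold change of -5.18e-05 ± 0.17, against -0.42 ± 0.37 without the block. The block and the loss of those libraries cannot be told apart in this shift. FLG had an adjusted p of 0.0634 with no filter and 0.0113 to 0.108 when each library was left out. Over all genes, 333 were higher and 106 lower with DESeq2, for which 12 adjusted p-values were not given, and 112 to 204 higher and 4 to 36 lower when each library was left out. A threshold of 5 CPM in place of 2 CPM left 106 genes in the set, 1 CPM gave 291 and control libraries alone gave 206. Without MALAT1 and NEAT1 the share of counts in the set was 0.321% in coculture and 0.318% in control; with each library left out it was 0.365% to 0.378% in coculture and 0.378% to 0.396% in control. The labels give coculture and control the same replicate numbers. Deviations of same-numbered libraries from their group means correlated at 0.35, -0.08, 0.20 and 0.14 over all genes tested. Over the set these correlations were 0.33, -0.14, 0.41 and -0.007. Controls 1 and 3 correlated best with the coculture library of their own number, and controls 2 and 4 did not. These values do not settle whether the numbers pair the libraries. With the replicate as a block, 1 gene of the set was higher and 0 lower (KCCAT211 edgeR adjusted p = 0.0276). Over all genes 100 were then higher and 10 lower. The cause of these shifts was not tested. For 18 genes of the set, KCCAT211 among them, the 95% interval of the difference reached beyond 2-fold.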
